A study of Mus musculus with 8 samples.

Results

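A set of 9 genes of hepatic glucose handling were examined in m6ARIP-seq of mouse liver, in which RNA fragments bound by an antibody to N6-methyladenosine (m6A) are sequenced beside the input RNA. The genes were G6pc, Pck1, Fbp1, Pcx, Pklr, Slc2a2, Slc37a4, Ppargc1a and Foxo1, and a peak belonged to one of them when the deposited peak list gave its symbol. Of these 9 genes, 8 had a peak. They held 14 of the 15635 peaks listed for Wtap flox/flox livers, 16 of the 19185 peaks listed for Wtap-HKO livers, and 8 of the 3870 rows of the deposited list of peaks that differ between the genotypes. Peaks of both lists that share at least 1 exonic base on the same strand of a gene were joined into a site, which gave 15 sites in these genes among 21738 sites over 11558 genes.

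WTAP is a subunit of the complex that writes m6A onto RNA. Wtap flox/flox mice carry a Wtap allele with loxP sites and no Cre. Wtap-HKO mice carry the same floxed allele and in addition Cre driven by the albumin promoter, so that the deletion is made in hepatocytes, while other liver cells keep the allele. Both groups were male mice of C57BL/6J background, 8 weeks old. Each genotype had 2 IP and 2 input libraries, each made from the pooled RNA of several mice, and the authors combined them into 1 list per genotype. The lists therefore hold 1 value per peak and genotype, with no spread between replicates and no read counts. The depth behind the values is unknown, and no difference given here was tested.

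The liver releases glucose during fasting by making it from lactate, glycerol and amino acids. This route reverses glycolysis with enzymes of its own, pyruvate carboxylase, phosphoenolpyruvate carboxykinase, fructose-1,6-bisphosphatase and glucose-6-phosphatase. Glucagon and glucocorticoids raise transcription of genes of this route through factors such as PGC-1alpha and FOXO1, and insulin lowers it. In mRNA, m6A is commonly found near the stop codon and in the 3′ UTR, and it can alter how long a transcript lasts and how much it is translated.

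Peaks at the 5′ end were found in G6pc, Pck1 and Foxo1, and a peak of Slc37a4 lay over the last of its 3 annotated starts. The stretches around these starts are shown because the G6pc, Pck1 and Slc37a4 peaks that were higher in Wtap-HKO livers lay over them. The Foxo1 peak began 59 nt past the start, outside the stretch shown, and its start is given for comparison. They are RefSeq sequences of GRCm38.p6, from 20 bases before to 10 bases from the start on, on the plus strand, with the first transcribed base in capitals. They lie at chr11:101367696-101367725 (G6pc), chr2:173153053-173153082 (Pck1), chr3:52268317-52268346 (Foxo1) and chr9:44398334-44398363 (Slc37a4).
G6pc: ggggcaaggcacagactgatAgcagaggga
Pck1: aggagggcgggctaccaagcAcagttggcc
Foxo1: ggccgcgcagcctgtcagtcAggggcgggg
Slc37a4: gggtggaggagagagaaagcGcacagaaaa
The G6pc, Pck1 and Foxo1 transcripts begin with A, as do 34.4% of 32851 annotated mouse starts. Of the 13 starts of the 9 genes for which a sequence window was at hand, 7 begin with A. They include a start each of Pklr, Fbp1, Pcx and Slc37a4 over which no peak lay. Antibodies to m6A also bind m6Am, a mark on an A next to the cap, and the lists do not tell the marks apart. GGACT, the most common m6A motif, was searched on the transcribed strand in the first 50 bases of these 13 starts. All 9 genes matched RefSeq by symbol and had a window. The only window of Ppargc1a starts at 51567725, inside the gene, whose RefSeq 5′ end is at 52115853. The outer start of Ppargc1a was thus not searched. GGACT was present at G6pc, from base 28 on, under the 5′ peak of both lists. It was also present at the inner Ppargc1a start, where neither list had a peak. Over all starts, 5.76% held GGACT in this window and 4.87% held its reverse complement. The G6pc match lies at chr11:101367735-101367755 on the plus strand, with the motif in capitals.
G6pc match: accgggctGGACTcactgcac

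G6pc encodes the catalytic subunit of glucose-6-phosphatase, which frees glucose from glucose 6-phosphate. It was enriched at 3 sites in both genotypes, and the sites differed in direction along the gene (chromosome 11, 101367716 to 101377903, plus strand, GRCm38). At the 5′ end, a peak of 180 nt had a fold enrichment, the ratio of IP over input, of 3.54 for Wtap flox/flox livers and of 5.32 in Wtap-HKO livers, a log2 ratio of 0.59. The second site, at 101376324 to 101376980, had 1 peak of 657 nt that reached a fold enrichment of 3.50 in livers with the floxed allele alone. In Wtap-HKO livers it was split into peaks of 269 nt and 210 nt with fold enrichments of 2.50 and 2.58. At the 3′ end, at 101377575 to 101377903, the fold enrichment was 2.71 in Wtap flox/flox livers against 2.06 in Wtap-HKO livers. Both sites in the distal stretch of the gene were thus lower, and narrower, in Wtap-HKO livers, and both were covered by rows of the list of differing peaks. The 5′ site was not covered.

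Pck1 encodes the cytosolic phosphoenolpyruvate carboxykinase, which commits oxaloacetate to glucose. Its 5′ end had the largest gain among the sites of these genes that had 1 peak in each list. The peak at chromosome 2, 173153048 to 173153167 (plus strand), had a fold enrichment of 2.85 over 90 nt in Wtap flox/flox livers against 6.32 over 120 nt in Wtap-HKO livers, a log2 ratio of 1.15 or 2.22-fold. A row of the list of differing peaks covered it. A second site, at 173158349 to 173158707, had nearly the same fold enrichment in both genotypes, with 2.07 and 1.96 (log2 ratio -0.08), although the called stretch was 359 nt in Wtap flox/flox livers against 209 nt in Wtap-HKO livers. A weak peak at the distal end, 90 nt long and 31 nt from the 3′ end, was listed for Wtap-HKO livers with a fold enrichment of 1.42, which only 0.271% of the peaks of that list did not exceed. It was absent from the Wtap flox/flox list.

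**Figure D1:**
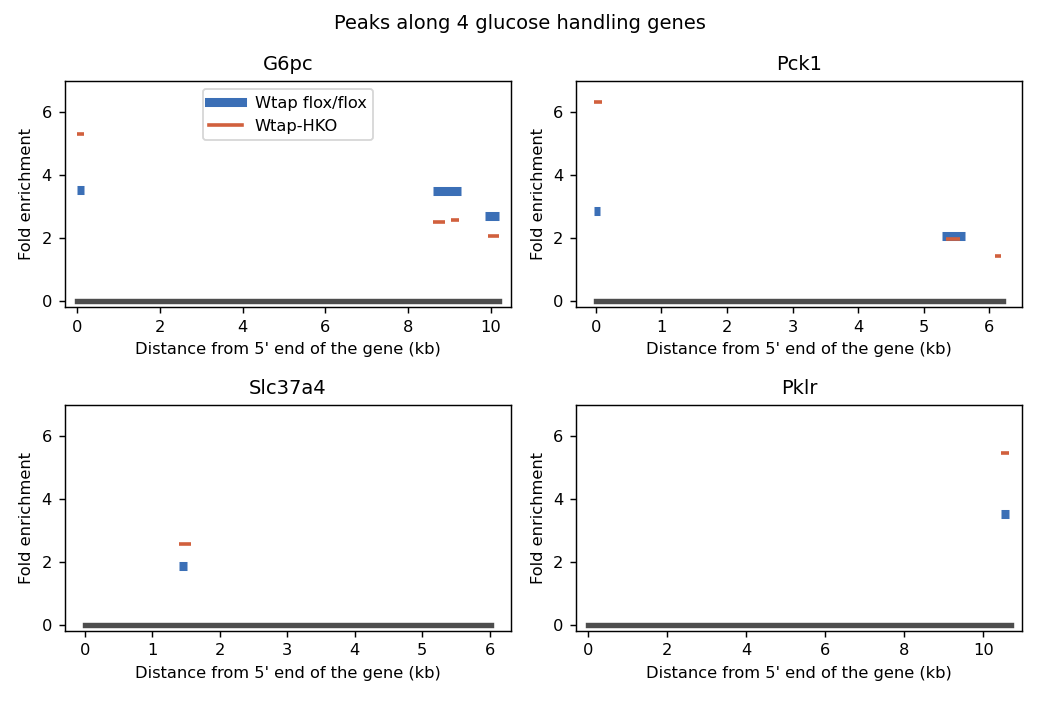
Peaks along G6pc, Pck1, Slc37a4 and Pklr, with the distance from the 5′ end of the gene in kb on the x axis and the fold enrichment of each peak on the y axis; wide blue bars are Wtap flox/flox peaks, narrow orange bars are Wtap-HKO peaks and the grey bar is the gene. The 5′ peaks of G6pc and Pck1 are higher in Wtap-HKO livers, at 5.32 and 6.32, and the distal G6pc peaks are lower there.

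The other 2 enzymes of the route had few peaks. Pcx encodes pyruvate carboxylase, which makes oxaloacetate from pyruvate. Its 1 peak, of 210 nt at chromosome 19, 4621124 to 4621333 (plus strand), lay 419 nt from the 3′ end and was listed for Wtap flox/flox livers only. Its fold enrichment was 1.90, which 4.02% of the peaks of that list did not exceed, and a row of the list of differing peaks covered it. Fbp1, which encodes the liver fructose-1,6-bisphosphatase, had no peak in any of the 3 lists. The lists do not show whether its RNA was unmethylated or covered by too few reads.

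Pklr encodes the liver pyruvate kinase, a glycolytic enzyme that works against gluconeogenesis. It had 1 peak of 211 nt with the same borders in both genotypes, at chromosome 3, 89146574 to 89146784 (plus strand), 31 nt from the 3′ end. The fold enrichment was 3.53 in Wtap flox/flox livers against 5.45 in Wtap-HKO livers, 1.54-fold higher, and no row of the list of differing peaks covered it. Hcn3, on the opposite strand, had a peak that shared 203 nt with it in both lists, with fold enrichments of 3.07 and 4.09. The library kit is not stated to mark strand, so reads from Pklr and Hcn3 cannot be told apart there.

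Slc2a2 encodes GLUT2, through which glucose crosses the hepatocyte membrane in either direction. Its site had the largest loss among the sites of these genes with 1 peak in each list. It lay at chromosome 3, 28727613 to 28728092 (plus strand), 269 nt from the 3′ end, with a fold enrichment of 4.55 over 480 nt in Wtap flox/flox livers against 1.81 over 270 nt in Wtap-HKO livers. This is a log2 ratio of -1.33, or 2.51-fold lower, and a row of the list of differing peaks covered it. Slc37a4 encodes the transporter that brings glucose 6-phosphate into the endoplasmic reticulum, where G6pc acts on it. Its peak at chromosome 9, 44398341 to 44398520 (plus strand), was weak in both genotypes, with fold enrichments of 1.87 over 120 nt and 2.55 over 180 nt. No row of the list of differing peaks covered it.

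Ppargc1a encodes PGC-1alpha, a coactivator of the gluconeogenic genes. Enrichment was lower in Wtap-HKO livers at both of its sites (chromosome 5, minus strand). At 51473725 to 51474115 the fold enrichment was 6.59 over 391 nt in Wtap flox/flox livers against 3.08 over 91 nt in Wtap-HKO livers, a log2 ratio of -1.10. A row of the list of differing peaks covered this site. Nearer the 3′ end, at 51457456 to 51458265, Wtap flox/flox livers had peaks of 180 nt and 541 nt with fold enrichments of 4.39 and 8.62. Wtap-HKO livers had 1 peak of 690 nt over almost the same stretch, at 3.28. The log2 ratio of the highest peaks was -1.39, yet the list of differing peaks had no row there.

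Foxo1 encodes a transcription factor that insulin signalling keeps out of the nucleus. It had the highest peaks of the 9 genes in both genotypes, but at opposite ends of the gene (chromosome 3, plus strand). At 52268396 to 52268606, 59 nt from the 5′ end, a peak with a fold enrichment of 16.3 was listed for Wtap-HKO livers, which 83.4% of the peaks of that list did not exceed. The Wtap flox/flox list had no peak there. The log10 false discovery rate of this peak, -13.5, was weaker than those of the 5′ G6pc and Pck1 peaks in the same list, -212 and -88.9. An unnamed gene on the opposite strand (ENSMUSG00000092405) had a peak in the Wtap-HKO list that shared 83 nt with the Foxo1 peak, at 2.48. Reads of the 2 genes cannot be told apart there either. Distally, at 52345511 to 52347645, the Wtap flox/flox peak had a fold enrichment of 22.3 and ran over 1530 nt in 2 blocks of 880 nt and 650 nt. In Wtap-HKO livers this stretch held 2 peaks with fold enrichments of 6.13 and 9.66, so the highest was 2.31-fold lower. Rows of the list of differing peaks covered both of these sites. Between them, at 52345091 to 52345421, a peak of 3.05 in Wtap flox/flox livers compared with 2.58 in Wtap-HKO livers (log2 ratio -0.24) and was not covered.

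**Figure D2:**
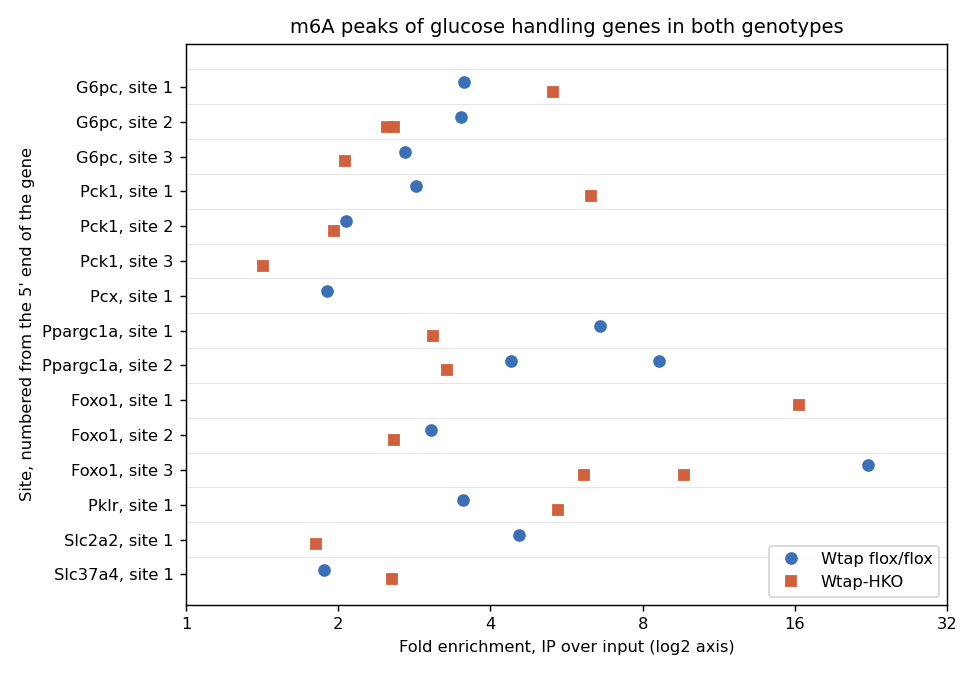
Fold enrichment of IP over input (x axis, log2 scale) of every listed peak at the 15 sites, numbered from the 5′ end of each gene (y axis); blue circles are Wtap flox/flox and orange squares Wtap-HKO peaks, and each point is 1 value per combined list, with no replicate error. Foxo1 has the highest peak of each genotype, 22.3 at site 3 in Wtap flox/flox and 16.3 at site 1 in Wtap-HKO livers.

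Over the 15 sites, 12 were in both lists, 1 was in the Wtap flox/flox list only (Pcx) and 2 were in the Wtap-HKO list only (Pck1 and Foxo1). Of all 21738 sites, 54.4% were in both lists, 14.4% in the Wtap flox/flox list only and 31.2% in the Wtap-HKO list only. The list of differing peaks covered 8 of the 15 sites, and 18.2% of all sites. Of the 15, 9 had exactly 1 peak in each list, with a median log2 ratio of Wtap-HKO over Wtap flox/flox enrichment of -0.08, against 0.01 over all 10805 such sites. Enrichment was at least 2-fold lower at 2 of the 9 (Slc2a2 and Ppargc1a) and at least 2-fold higher at 1 (Pck1), where 12.4% and 14.8% of all such sites were. It was higher by any amount at 4 of the 9, and at 50.1% of all. The borders of a peak were drawn separately in each list, so the ratios compare stretches of unequal length at all these sites but those of G6pc at the 5′ end and Pklr.

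Over the whole series, direction went with position mainly at the 5′ end of genes. Sites within 200 nt of the 5′ end of a gene had a median log2 ratio of 0.83 over the whole series (1430 sites with 1 peak in each list), and 85.3% of them were higher in Wtap-HKO livers. The 2 such sites in these genes, of G6pc and Pck1, were both higher. Within 200 nt of the 3′ end the median of all sites was -0.18, and 622 of 1055 sites with 1 peak in each list were lower. The G6pc and Pklr sites there had log2 ratios of -0.40 and 0.63. Elsewhere in the gene span the median of all sites was -0.13, and 4080 of 7273 sites with 1 peak in each list were lower. Of the 5 such sites in these genes, 4 were lower in Wtap-HKO livers and 1, of Slc37a4, was higher, with a log2 ratio of 0.45. The Slc37a4 site counts as elsewhere because its distance was taken from the first of its starts.

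**Figure D3:**
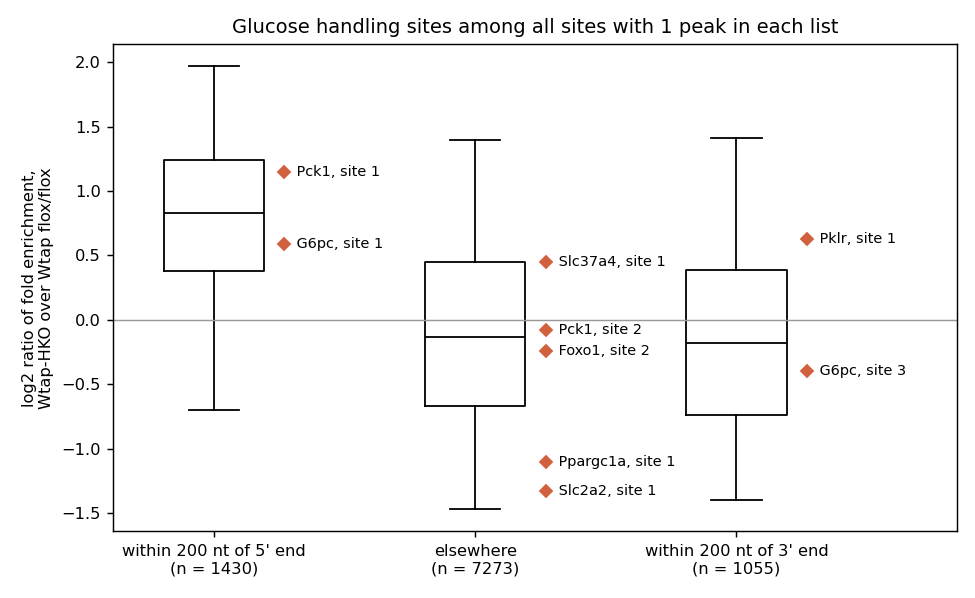
The log2 ratio of Wtap-HKO over Wtap flox/flox fold enrichment (y axis) for all sites with 1 peak in each list, grouped by position in the gene (x axis); boxes are quartiles with the median, whiskers run from the 5th to the 95th percentile of sites, and orange diamonds are the 9 sites in the glucose handling genes. The G6pc and Pck1 5′ sites, at 0.59 and 1.15, lie among 5′ sites whose median is 0.83.

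As ranks of fold enrichment within its own list, the Pck1 5′ peak lay at percentile 17.1 of the Wtap flox/flox list and 53.4 of the Wtap-HKO list. The Slc2a2 peak lay at 40.4 and 2.46. The lists differ in length and in the sites they hold, so these ranks are places in 2 different lists and not changes measured at a site.

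The lists hold no level of RNA, so the deletion of Wtap itself could not be checked in them. Wtap had 3 peaks in each list, with fold enrichments of 8.06, 20.7 and 8.78 in Wtap flox/flox livers against 4.47, 20.5 and 20.6 in Wtap-HKO livers. Of 7 hepatocyte marker genes, 4 had a peak in the Wtap flox/flox list and 5 in the Wtap-HKO list. Of 21 markers of Kupffer, endothelial, stellate and biliary cells and leukocytes, 9 and 15 had one. Over the whole series, the genes with a peak numbered 9020 in the Wtap flox/flox list and 10634 in the Wtap-HKO list. Cps1, Serpina1c, Adgre1, Stab2, Reln, Krt19 and Cd3e were among the markers with a peak in neither list. In whole liver, fewer cells of a type and less RNA per cell cannot be told apart, and the part of a change in cell types in the enrichment of the glucose genes was not tested.

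A further 116 genes of glucose metabolism were counted in 5 lists. Of these genes, 64 had a peak in both genotypes, 8 in Wtap flox/flox livers only, 17 in Wtap-HKO livers only and 27 in neither. Of the 89 with a peak, 71.9% thus had one in both, 8.99% in Wtap flox/flox livers only and 19.1% in Wtap-HKO livers only, close to the 70.0%, 7.99% and 22.0% of all 11558 genes with a peak. They held 89 sites with 1 peak in each list, with a median log2 ratio of 0.16. Of these, 4 were at least 2-fold lower and 11 at least 2-fold higher in Wtap-HKO livers. Over all 10805 sites with 1 peak in each list, 12.4% were at least 2-fold lower and 14.8% at least 2-fold higher. The other enzymes of gluconeogenesis and glycolysis, with 29 genes, included 13 without a peak, and their 10 such sites had a median log2 ratio of -0.08. Pck2, the mitochondrial counterpart of Pck1, went from a fold enrichment of 27.2 to 10.6 (log2 ratio -1.36), while the hexokinase gene Hk3 went from 12.7 to 39.8 and Pfkfb4, whose product sets the level of fructose 2,6-bisphosphate, from 27.2 to 75.3. Pfkl, Fbp2 and G6pc3 had a peak in Wtap-HKO livers only, at 4.99, 3.43 and 8.58. The peaks of Pfkl and G6pc3 lay 41 and 56 nt from the 5′ end of the gene, and that of Fbp2 lay 53 nt from the 3′ end.

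Of the 22 genes that supply or use pyruvate and amino acid carbon, 12 had a peak in both genotypes. Of their 8 sites with 1 peak in each list, 7 were higher in Wtap-HKO livers (median log2 ratio 0.71), where 50.1% of all such sites were, and none of the 8 passed 2-fold. Of these 8 sites, 4 lay within 200 nt of the 5′ end, the class in which 85.3% of all sites were higher, and all 4 were higher, as were 3 of the other 4. Pdp2, a phosphatase that activates pyruvate dehydrogenase, had 1 peak at 21.6 in Wtap flox/flox livers and 3 peaks, at most 9.90, at the same site in Wtap-HKO livers. Peaks of Dlat and Pdhx, subunits of that complex, at 3.35 and 3.29, and of the alanine aminotransferase Gpt2, at 1.81, were listed for Wtap flox/flox livers only. Peaks of Pdhb and of the malate dehydrogenase Mdh1, at 5.84 and 2.42, were listed for Wtap-HKO livers only. They lay 428 and 107 nt from the 5′ end. Over the whole series, 1638 sites within 200 nt of the 5′ end were in the Wtap-HKO list only and 105 in the Wtap flox/flox list only.

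Among 20 glycogen genes, 9 had a peak in both genotypes, and 9 of the 12 sites with 1 peak in each list were higher in Wtap-HKO livers (median log2 ratio 0.59). They were 4 of 4 sites within 200 nt of the 5′ end and 5 of the other 8. Of all sites with 1 peak in each list, 50.1% were higher, and of those within 200 nt of the 5′ end 85.3%. Gsk3b, a kinase that inhibits glycogen synthase, went from 6.27 to 26.2 at a site 450 nt from the 5′ end. Stbd1, a glycogen-binding protein, went from 6.25 to 2.59 at its middle site. Peaks of the liver glycogen synthase Gys2 (2.29), the branching enzyme Gbe1 (4.80) and the phosphorylase Pygb (5.42) were listed for Wtap-HKO livers only, each within 200 nt of the 5′ end, and a peak of the phosphorylase kinase subunit Phka1 (5.90) for Wtap flox/flox livers only.

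Among 14 genes of sugar transport and fructose use, 6 had a peak in both genotypes. Of their 5 sites with 1 peak in each list, 4 were higher in Wtap-HKO livers (median log2 ratio 0.72), where 50.1% of all such sites were. These were 2 of 2 within 200 nt of the 5′ end, where 85.3% of all sites were higher, and 2 of the other 3. Sord, the sorbitol dehydrogenase, went from 6.24 to 24.5 at its 5′ end, and Gckr, the glucokinase regulator, from 3.99 to 9.76. Slc5a2, a sodium-glucose cotransporter, went from 6.07 to 2.66, 239 nt from the 3′ end. At 1 site of the sugar and urate transporter Slc2a9, with 2 peaks in each list, the highest fold enrichment was 3.25 in Wtap flox/flox livers against 31.6 in Wtap-HKO livers. Slc2a3 and Slc2a8 had a peak in Wtap-HKO livers only, at 11.1 and 2.03.

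All 31 hormone and transcriptional regulators had a peak, but the share of all genes without one is not known from the lists. Of the 31, 28 had a peak in both genotypes, where 70.0% of all genes with a peak did. The 54 sites of these regulators with 1 peak in each list had a median log2 ratio of -0.02. Of them, 25 were higher and 28 lower in Wtap-HKO livers. Of the 54, 6 were at least 2-fold higher and 1 was at least 2-fold lower, where 14.8% and 12.4% of all such sites were. The lower site was in the fatty acid receptor gene Ppara (13.1 to 6.54), which is named here after its values were seen. The higher sites were in Kat2a, an acetyltransferase that acts on PGC-1alpha (3.22 to 13.3), Prkaca, the catalytic subunit of protein kinase A (5.37 to 14.6), Crtc2, a CREB coactivator (3.62 to 8.23), Hnf4a, a hepatocyte nuclear receptor (5.12 to 11.5), Adcy9, an adenylyl cyclase (2.82 to 6.26), and Klf15, a fasting-induced factor (2.30 to 5.02). The Kat2a and Prkaca sites lay 20 nt and 15 nt from the 5′ end. Kat2a, Hnf4a, Adcy9 and Klf15 each also had a site with lower enrichment in Wtap-HKO livers. For Hnf4a it lay 2306 nt from the 3′ end and went from 3.79 to 1.95.

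**Figure D4:**
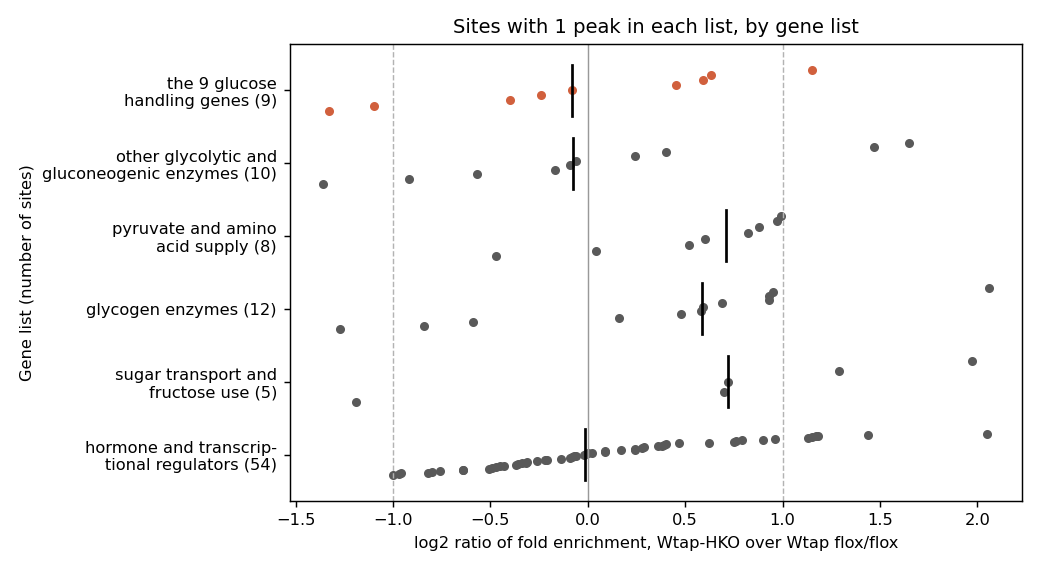
The log2 ratio of Wtap-HKO over Wtap flox/flox fold enrichment (x axis) of sites with 1 peak in each list, by gene list (y axis, number of sites in parentheses); each point is a site, black ticks are medians and dashed lines mark 2-fold. The 9 glucose handling sites (orange) run from -1.33 to 1.15 around a median of -0.08.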

How the data were processed

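Liver RNA of 2 genotypes was examined by m6ARIP-seq, with 2 IP and 2 input libraries each, grouped by the labels. The authors trimmed reads with fastp 0.19.11, aligned them to GRCm38 with BWA 0.7.12 and called peaks with exomePeak, and HOMER 4.9.1 is named in the submitters' processing notes. They deposited 3 lists in which the replicates are combined by a rule not given in the sources used here. For each peak the authors deposited a fold enrichment, a linear ratio of IP over input, and a log10 false discovery rate, used here as a score. The list of differing peaks also holds the fold change and p-values between genotypes. These were not used: only the gene names and positions of its rows were read.

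Sites, log2 ratios, percentiles within a list (the share of its peaks with an equal or lower fold enrichment) and distances to the gene ends of RefSeq GRCm38.p6 were computed in Python 3.11.15 (pandas 2.3.3, numpy 2.4.6, matplotlib 3.10.9 for plots), after a check on simulated lists. Positions are 1-based. A ratio was counted as a difference from 2-fold on, and no test was made, since there is 1 value per genotype. The distance class could be given for 88.6% of sites. Sequence was read from RefSeq windows around annotated starts only, and no transcript models were used, so exons and UTRs of peaks are not given. All 9 genes are described. Of the other lists, at most 6 genes each are named, those with a site past 2-fold by size of the ratio, then those with a peak in 1 list only. Genes and lists were chosen with earlier results of these data known. Alternatives were a stricter false discovery rate or fold enrichment, other overlap rules, centring and a 1.5-fold limit.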

Additional observations from a re-analysis of the deposited data

How the results depend on the processing

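Of 42 alternative values, 39 left a count within 1.5 times of the one reported or a ratio with the same sign, and 3 did not. Some of the 39 could not have differed. The median used for centring was 0.01, smaller in size than every ratio of the 9 genes. The weakest log10 false discovery rate of a peak of these genes was -7.29, and the stricter limit was -5. With only peaks of a fold enrichment of at least 2 kept, 9 sites in place of 12 were in both lists. The Wtap flox/flox list alone then held 2 sites (Slc2a2 and the second Pck1 site, while Pcx dropped out), and the Wtap-HKO list alone again held 2, but Slc37a4 took the place of the distal Pck1 site. With a limit of 1.5-fold, 3 of the 9 sites with 1 peak in each list were higher in Wtap-HKO livers (Pck1, G6pc at the 5′ end and Pklr) and 2 lower. With all 12 sites in both lists compared by their highest peaks, 4 were at least 2-fold lower, the distal sites of Ppargc1a and Foxo1 being added. The median difference in percentile over the 9 sites was -2.5 over all peaks and -0.7 over the peaks of sites with 1 peak in each list. Centring on the median of all sites changed the sign of 0 ratios. No paired analysis was possible because the lists combine the replicates of a genotype, which also bars leaving out a replicate and any spread between replicates. With no read counts the depth is unknown, and a fold enrichment says nothing of the level of a transcript.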
